A study of Mus musculus with 12 samples.

Results

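The experiment examined here asked what activation of MycER changes in cells whose respiratory chain is blocked. It compared 3 libraries of FL MycER cells given OHT and IACS-010759 (OHT_IACS) with 3 libraries given IACS-010759 alone (IACS), over the 9745 of 21671 deposited genes with an RPKM of 1 or more in at least 3 of the 12 libraries of the series. FL5.12 is an IL-3-dependent mouse line that the labels call pro-lymphocytic, and FL MycER is a retrovirally transduced, drug-selected population of it rather than a clone. MycER is the MYC protein fused to a hormone-binding part of the estrogen receptor. It is held inactive until 4-hydroxytamoxifen (OHT) is given. IACS cells received 135 nM IACS-010759, an inhibitor of complex I of the electron transport chain, for 24 h. OHT_IACS cells were primed with 100 nM OHT for 48 h and then received the same IACS-010759 treatment for 24 h with OHT still present. The other groups, also of 3 libraries each, were untreated cells and cells given OHT alone. No cells without the transgene were analysed here, so an action of OHT that does not pass through MycER cannot be told apart from MycER activation.

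MYC is a transcription factor of the basic helix-loop-helix family that binds DNA as a dimer with MAX, preferably at the E-box CACGTG. It is known for raising genes of ribosome production, nucleotide synthesis and metabolism, and for opposing differentiation and cell cycle exit. Complex I oxidises NADH and feeds electrons into the respiratory chain, so its block makes cells depend on glycolysis for ATP.

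The reads behind each value were worked out from the steps of the deposited RPKM, that is, reads scaled to the length of the gene and to a total of the library. The totals behind RPKM were 13076509, 13729131 and 11133789 reads in the IACS libraries. They were 11913079, 11804978 and 11792608 reads in OHT_IACS. IACS replicates 1 and 2 were the closest pair. Their chi-square per degree of freedom was 1.02 over 11181 genes, where 1 is sampling noise, and 1.08 over the 5858 of these genes with up to 0.1 reads per base (chi-square test, p = 7.3e-06). They were kept as separate samples, and counts with their average taken as 1 library are given below. The most abundant genes levelled off between 1.59 and 1.8 reads per base in all 12 libraries, which narrows the differences that these genes can show. Of 10 B-lineage markers, Cd79a and Cd79b reached an RPKM of 1 in any library, while Pax5, Rag1, Dntt and Il7r were among those listed at 0 throughout. Myeloid and mast cell genes such as Mpo (8.65 to 13.7 RPKM) and Cpa3 (4.05 to 14.2 RPKM) were present, as was the erythroid factor Klf1 (4.92 to 13.7 RPKM). Most of the B-lineage markers were thus at or near 0 in these values. A listed 0 need not mean absence (see Hmgcs1 below), so the lineage of the cells was not tested.

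With IACS present, OHT changed 2585 of the 9745 genes (26.5%; limma, adjusted p under 0.05). Of these, 1197 (12.3% of those tested) rose and 1388 (14.2%) fell. Most changes were small. The median log2 fold change was 0.32 among the genes that rose and -0.33 among those that fell, and 58 genes rose and 61 fell by 1 or more on the log2 scale. For 4118 genes the 3 libraries of one group all lay above those of the other (42.3%), including 2492 of the 2585 called. With IACS replicates 1 and 2 averaged and counted as 1 library, 1901 genes were called. The share called depended on abundance. It was 31.7% of the 3479 genes between 0.1 and 0.3 reads per base and 8.86% of the 643 genes between 0.5 and 1. None of the 84 genes above 1 read per base was called by limma (0 at an unadjusted p under 0.05, and 0 by limma voom on the recovered reads). In the 4491 genes with up to 0.1 reads per base the share was 26.1%. The median log2 fold change went from -0.03 in these genes to 0.07 in those above 1 read per base.

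The genes with the largest rises were low or nearly silent without OHT. Smpdl3b, a lipase-like phosphodiesterase, stood at 0.596, 0.795 and 0.747 RPKM in the IACS libraries and at 6.45, 6.69 and 4.63 RPKM in OHT_IACS. Every OHT_IACS library was above every IACS library. The log2 fold change was 2.88 ± 0.14 (SE; limma adjusted p = 1.6e-08). Fig4, a phosphoinositide phosphatase, went from 1.29, 1.16 and 0.991 RPKM to 8.62, 7.87 and 7.51 RPKM, again without overlap, a log2 fold change of 2.71 ± 0.12 (limma adjusted p = 6.7e-09). Mc1r, the melanocortin 1 receptor, read 0.939, 1.01 and 0.784 RPKM in IACS and 5.72, 6.63 and 5.83 RPKM in OHT_IACS. Both groups were tight and far apart, with a log2 fold change of 2.61 ± 0.14 (limma adjusted p = 2.8e-08). Slc2a6, a glucose transporter family member of lysosomal membranes, rose by 2.58 ± 0.19 on the log2 scale.

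Gpx6, a glutathione peroxidase, had 0 reads in each of the 3 IACS libraries and 97, 103 and 102 reads in OHT_IACS. Its level was thus at least 35.7-fold higher with OHT, taking 3 reads per library as the floor. Without IACS it stood at 4.78, 5.55 and 4.89 RPKM with OHT and at 0.058, 0 and 0 RPKM in untreated cells. The remaining genes among the 10 largest rises were C1ra (log2 fold change 2.31), a protease of the complement cascade, Zc3h12d (2.18), an RNA-binding regulator of inflammation, the hexokinase-like Hkdc1 (2.02), Psg16 (2.90) and Nr1d1 (1.97). C1ra has a near-identical copy and Psg16 belongs to a large gene family, so reads between family members are uncertain. Gpx6, Psg16, Zc3h12d, Hkdc1 and Slc2a6 were under an RPKM of 1 in every library without OHT. They passed the filter only through libraries with OHT, and Nr1d1 also needed those libraries to pass. Their low levels without OHT are therefore partly built in by the filter.

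**Figure D1:**
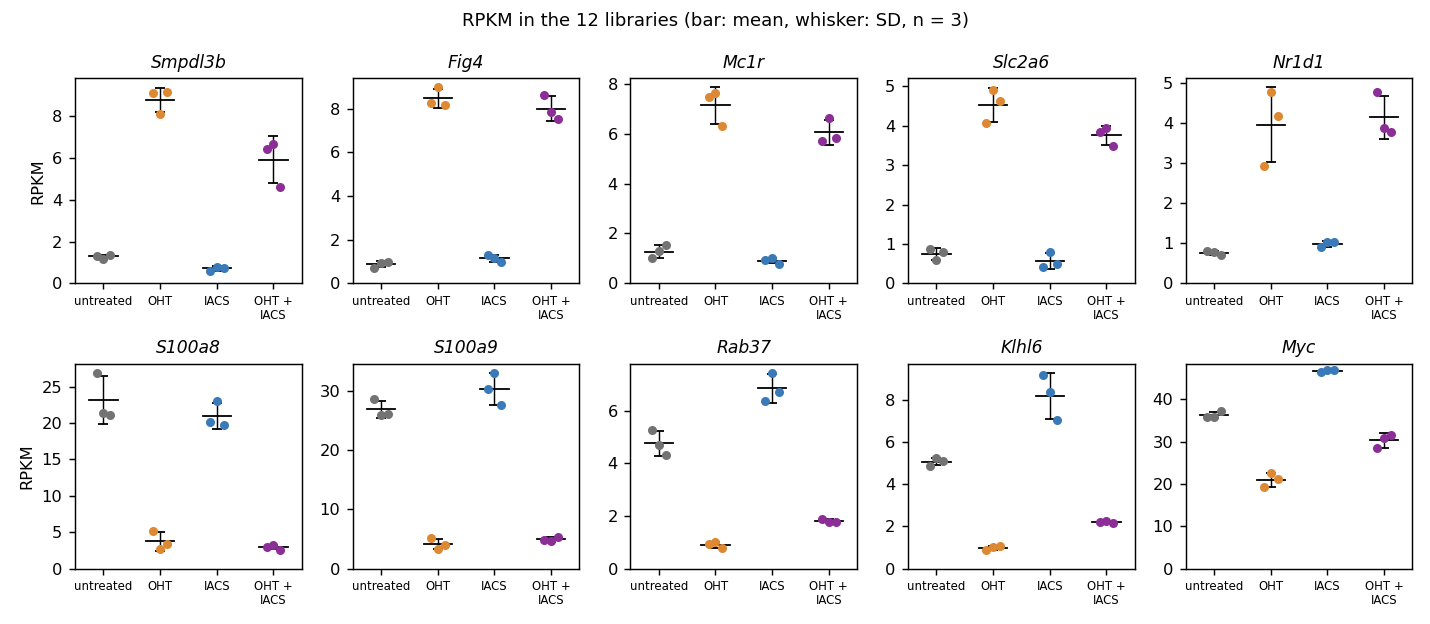
RPKM (vertical axis, linear from 0) of 10 genes in the 12 libraries by group (horizontal axis); points are libraries, bars are means and whiskers are SD (n = 3). Smpdl3b stood at 4.63 to 6.69 RPKM in OHT_IACS against 0.596 to 0.795 in IACS, and S100a9 at 4.66 to 5.35 RPKM against 27.6 to 33.1.

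The largest falls were led by genes of neutrophil granules and cytosol. S100a9 and S100a8 form the calcium-binding dimer calprotectin. S100a9 stood at 30.4, 33.1 and 27.6 RPKM in IACS and at 4.79, 4.66 and 5.35 RPKM in OHT_IACS. The groups did not overlap, and the log2 fold change was -2.59 ± 0.13 (limma adjusted p = 1.6e-08). S100a8 went from 20.1, 23 and 19.7 RPKM to 3, 3.24 and 2.6 RPKM, a log2 fold change of -2.78 ± 0.18 (limma adjusted p = 2.6e-07). Klhl6, an adaptor of a ubiquitin ligase in haematopoietic cells, read 9.19, 8.36 and 7.02 RPKM in IACS and 2.2, 2.25 and 2.15 RPKM in OHT_IACS. These groups were also well apart (log2 fold change -1.83 ± 0.09; limma adjusted p = 1.8e-08). The small GTPase Rab37, which acts in exocytosis, fell by 1.85 on the log2 scale, and Ffar2, a receptor for short-chain fatty acids, by 1.89. Ifitm6 (-2.03), the uncharacterised 2900026A02Rik (-2.39), the pseudokinase gene Fam20a (-1.77) and Gm5424 (-1.83) were also among the 10 largest falls. Gm5424 closely resembles Ass1, so its reads are uncertain. Ffar2 and 2900026A02Rik were under an RPKM of 1 in every library with OHT. Among libraries with OHT, Fam20a reached 1 only in OHT_IACS replicate 3 (1.08 RPKM) and Gm5424 only in OHT replicate 2 (1.2 RPKM). These genes passed the filter only because of libraries without OHT, so their falls are partly built in by it.

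Members of the MYC network moved in both directions. Of 10 tested genes, 3 were higher (30%, against 12.3% of all genes) and 3 lower (30%, against 14.2%). The Myc gene itself stood at 46.6, 46.9 and 47.0 RPKM in IACS and at 28.4, 30.9 and 31.6 RPKM in OHT_IACS. All 3 OHT_IACS libraries were lower, and the log2 fold change was -0.62 ± 0.05 (limma adjusted p = 2.8e-06). Whether reads of the transgene count towards Myc was not tested. Mycn, a paralog of Myc, read 39.1, 37.4 and 37.0 RPKM in IACS and 31.3, 34.4 and 33.9 RPKM in OHT_IACS, a log2 fold change of -0.18 ± 0.06 (limma adjusted p = 0.031; 0.013 to 0.13 over the alternatives). Without IACS replicate 1 or 3, or OHT_IACS replicate 1 or 2, the change in Mycn did not pass, with log2 fold changes of -0.17, -0.18, -0.14 and -0.20. Mxi1, a MAX partner that opposes MYC at its sites, rose from 5.48, 5.91 and 5.48 RPKM to 10.3, 9.40 and 9.45 RPKM (log2 fold change 0.79 ± 0.06; limma adjusted p = 1.1e-06). Mlxip, which senses glucose phosphates as a partner of MLX, rose by 0.52 on the log2 scale, and Mlx fell by 0.23. Max, the obligate partner of MYC, had a log2 fold change of 0.04 ± 0.05 and was not called.

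Known MYC targets rose in part and by little. Of 35 tested members of a list of textbook targets, 13 rose (37.1%, against 12.3% of all genes) and 0 fell by limma (0 at an unadjusted p under 0.05, 0 by limma voom), and the list median was 0.13 on the log2 scale, against 0.00 over all genes. Without IACS replicate 2 the list median was 0.069. The list was written with earlier results of these data known, so its share of rises is not independent of them. Besides Smpdl3b, the largest rise was that of St6galnac4, a sialyltransferase, with a log2 fold change of 1.22. Reep6 of the endoplasmic reticulum rose by 0.55 and the U3 snoRNP protein Rrp9 by 0.50. Several abundant targets were not called, among them Odc1 of polyamine synthesis (0.06 ± 0.09), Npm1 (0.06 ± 0.11), Nop56 (0.06 ± 0.09) and Cdk4 (0.07 ± 0.08). Of the 35 members, 20 lay above 0.5 reads per base, where 8.86% or fewer of all genes were called. Among textbook targets of repression by MYC, 6 of 16 fell (37.5%, against 14.2% of all genes) and 3 rose (18.8%, against 12.3%). Itgal, an integrin of leukocytes, had a log2 fold change of -0.94 and the stress gene Gadd45a one of -0.54. The zinc finger factor Klf6 (1.06) and Gadd45b (0.56) went the other way.

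Broader lists of MYC targets, written from memory of the hallmark collection, showed smaller shifts. In the first, 19 of 197 members rose (9.64%, against 12.3% of all genes) and 5 fell (2.54%, against 14.2%), with a median of 0.05. In the second, 11 of 58 rose (19%) and 2 fell (3.45%), with a median of 0.06. The phosphatase gene Dusp2 (1.01), the sorbitol dehydrogenase gene Sord (0.65) and Rrp9 (0.50) led the rises of the second list. Members of the first list had a median of 0.498 reads per base and those of the second 0.404. All genes between 0.3 and 0.5 reads per base had a median log2 fold change of 0.005, and those between 0.5 and 1 one of 0.04. The members under 0.5 reads per base had medians of 0.037 in the first list and 0.05 in the second. The first list's median moved with single libraries, to 0.016 without IACS replicate 2, 0.033 without IACS replicate 1 and 0.096 without IACS replicate 3. When library totals (log2) entered the fit as a covariate, the first list's median was -0.01.

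The RefSeq promoters of Smpdl3b and Pus7 are shown because they are the textbook targets that rose and hold the E-box within 250 bases before to 50 after their start; of the 13 that rose, 10 had a promoter in the table. Pus7, a pseudouridine synthase, had a log2 fold change of 0.20 ± 0.04 (limma adjusted p = 0.003). The promoter of Tef, a clock output factor described below, was chosen after its values were seen. Each is written 5′ to 3′ on the strand of the gene, with CACGTG in capitals. The positions are on GRCm38.p6, chr4:132757122-132757421 (minus strand) for Smpdl3b, chr5:23783662-23783961 (minus strand) for 1 of 2 promoters of Pus7, and chr15:81802423-81802722 (plus strand) for 1 of 2 promoters of Tef.
Smpdl3b: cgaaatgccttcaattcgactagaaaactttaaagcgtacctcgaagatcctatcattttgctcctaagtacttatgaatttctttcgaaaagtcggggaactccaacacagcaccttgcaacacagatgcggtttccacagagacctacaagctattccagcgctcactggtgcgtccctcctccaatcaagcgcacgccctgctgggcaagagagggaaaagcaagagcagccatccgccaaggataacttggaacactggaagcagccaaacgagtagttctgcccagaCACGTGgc
Pus7: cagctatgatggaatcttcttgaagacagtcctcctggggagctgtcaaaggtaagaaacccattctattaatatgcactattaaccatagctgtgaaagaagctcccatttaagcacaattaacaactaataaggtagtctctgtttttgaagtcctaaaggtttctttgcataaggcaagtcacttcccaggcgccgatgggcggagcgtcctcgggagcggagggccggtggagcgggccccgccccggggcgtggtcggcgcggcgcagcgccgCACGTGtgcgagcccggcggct
Tef: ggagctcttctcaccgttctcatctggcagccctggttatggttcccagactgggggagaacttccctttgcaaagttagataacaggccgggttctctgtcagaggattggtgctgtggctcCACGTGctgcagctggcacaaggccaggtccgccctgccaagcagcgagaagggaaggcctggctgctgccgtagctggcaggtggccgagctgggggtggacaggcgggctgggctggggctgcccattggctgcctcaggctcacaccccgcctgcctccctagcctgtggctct
The motif begins 42 bases after the start of Smpdl3b, 28 bases after that of Pus7 and 127 bases before that of Tef. Across the table, E-box matches were no more frequent in front of the genes that rose. CACGTG, which reads the same on both strands, stood in 121 of 1168 promoters of genes that rose (10.4%), in 143 of 1441 of genes that fell (9.92%) and in 717 of 6704 of genes not called (10.7%). It stood in 7.15% of all 32851 promoters, and 7366 of the 9745 genes were matched by symbol.

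Genes of ribosome production moved in small steps. Of 98 ribosome biogenesis genes, 23 rose (23.5%, against 12.3% of all genes) and 7 fell (7.14%, against 14.2%), with a median of 0.05. Polr1a, the largest subunit of RNA polymerase I, rose by 0.59 on the log2 scale and its second subunit Polr1b by 0.31. The rRNA-processing genes Nol9 (0.36) and Ddx51 (0.33) also rose. None of the 76 cytosolic ribosomal protein genes was called by limma or limma voom, 1 had an unadjusted p under 0.05, and 64 of them lay above 0.5 reads per base. Of 76 mitochondrial ribosomal protein genes, 18 rose (23.7%, against 12.3%) and 1 fell (1.32%, against 14.2%). The rises were led by Mrpl22 (0.68), Mrpl16 (0.45) and Mrps15 (0.39).

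Subunits of the respiratory chain, the target of IACS-010759, showed few changes. Of 37 complex I subunits, Ndufab1, which doubles as the mitochondrial acyl carrier protein, rose by 0.29, and Ndufv3 fell by 0.37. None of 39 subunits of complexes II to V was called by limma (0 at an unadjusted p under 0.05, 0 by limma voom). Of these lists, 19 and 29 members lay above 0.5 reads per base. Of 22 genes of glycolysis and lactate transport, 3 rose (13.6%, against 12.3% of all genes) and 4 fell (18.2%, against 14.2%). The pyruvate dehydrogenase kinase gene Pdk1 went from 8.43, 9.39 and 8.19 RPKM to 15, 14.2 and 13.9 RPKM. It had a log2 fold change of 0.73 ± 0.05 (limma adjusted p = 5.6e-07). The glucose transporter gene Slc2a1 rose by 0.37 and the hexokinase gene Hk2 by 0.36. The phosphofructokinase gene Pfkl fell by 0.27 and Pfkfb3, which makes its activator, by 0.31, while the hexokinase Hk3 of myeloid cells fell by 1.03.

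**Figure D2:**
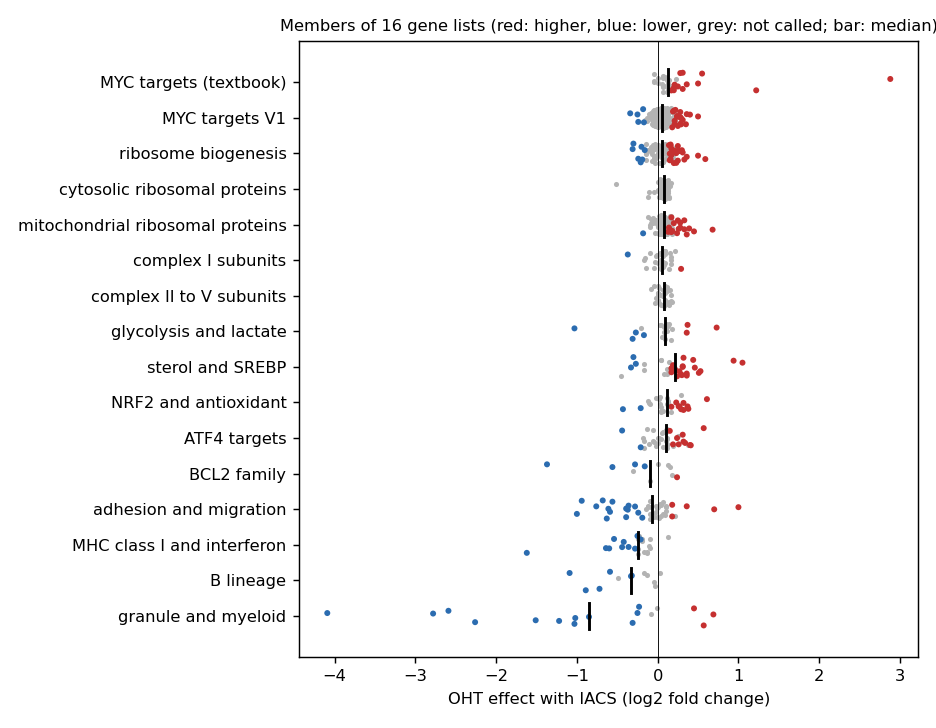
Log2 fold change of OHT_IACS against IACS (horizontal axis) of each tested member of 16 gene lists (rows); coloured points were called by limma, grey ones were not, and black bars are list medians. The sterol list had 21 of 33 members higher, and the granule and myeloid list had 12 of 17 lower with a median of -0.85.

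Sterol genes formed the list with the highest share of rises among the 32 written for this comparison. The mevalonate pathway makes isoprenoids and cholesterol from acetyl-CoA, and the SREBP factors drive its genes when sterols run low. Of 33 tested members, 21 rose (63.6%, against 12.3% of all genes) and 3 fell (9.09%, against 14.2%), with a median of 0.21. Mvk, the mevalonate kinase, read 6.70, 6.99 and 5.18 RPKM in IACS and 14.3, 13.0 and 11.7 RPKM in OHT_IACS. The groups were well separated, with a log2 fold change of 1.05 ± 0.09 (limma adjusted p = 2.5e-06). Stard4, which carries cholesterol between membranes, stood at 12.4, 12 and 12.3 RPKM against 23.4, 22.8 and 24.1 RPKM (log2 fold change 0.94 ± 0.04; limma adjusted p = 1.6e-08).

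Further along the pathway, Fdps (0.31), Fdft1 (0.30), Sqle (0.27), Lss (0.53), Cyp51 (0.36), Msmo1 (0.36) and Dhcr7 (0.51) rose on the log2 scale. Mvd, which acts between Mvk and Fdps, had a log2 fold change of -0.17 ± 0.11 and was not called; without IACS replicate 3 it was -0.31 and passed. Ebp, a late isomerase, fell by 0.30. Hmgcs1, which cells that make sterols use, was listed at 0 in all 12 libraries, so a listed 0 need not mean absence. Srebf2, the main SREBP of cholesterol synthesis, rose by 0.46, while Srebf1 had a log2 fold change of 0.04 ± 0.05. The exporter Abcg1 fell by 0.33. Fasn, the fatty acid synthase, rose by 0.44. None of the 33 members had an OHT effect that differed between the settings with and without IACS at an adjusted p under 0.05 (interaction, limma). Yet in simulated data this test found 21 of 200 differences of 0.5 and 174 of 200 differences of 1 on the log2 scale. The simulated libraries held no deviation shared across genes, so the rates in the real data may differ. The difference for Mvk was 0.38 ± 0.13.

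**Figure D3:**
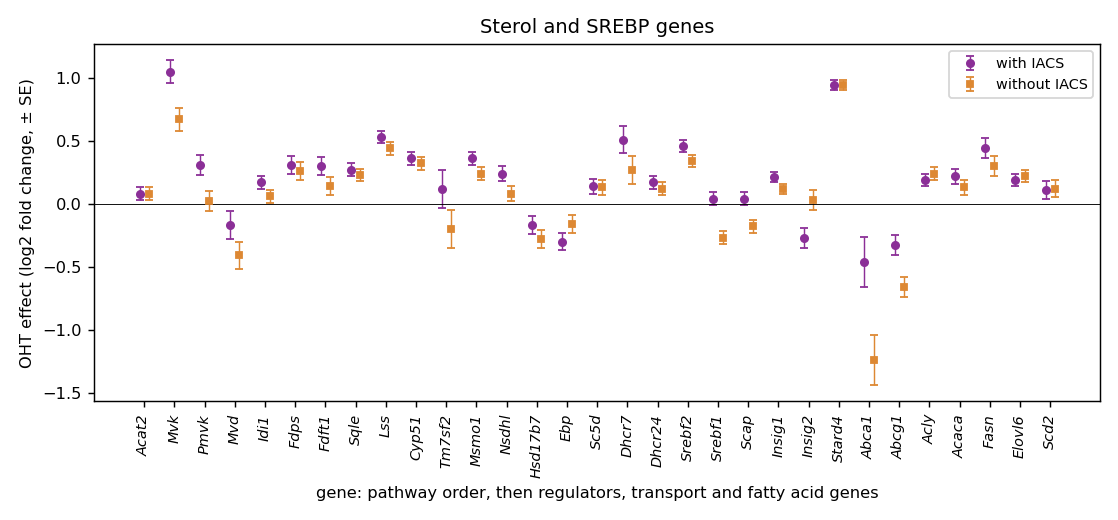
Log2 fold change of OHT with IACS (circles) and without IACS (squares), each ± SE, on the vertical axis for 31 of the 33 tested sterol and SREBP genes on the horizontal axis. Mvk stood highest with IACS at 1.05, and Stard4 had 0.94 in both settings.

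Myeloid granule genes made up the list with the lowest median. Of 17 tested members, 12 fell (70.6%, against 14.2% of all genes) and 3 rose (17.6%), with a median of -0.85. Besides S100a8 and S100a9, the serine proteases of primary granules fell. Ctsg went from 14.1, 15.3 and 12.6 RPKM to 5.03, 6.68 and 6.18 RPKM (log2 fold change -1.22 ± 0.13) and Prtn3 from 18, 18.3 and 14 RPKM to 9.49, 9.08 and 8.84 RPKM (-0.85 ± 0.09). In both genes all OHT_IACS libraries were below all IACS libraries. Ngp, a secondary granule protein, had 35, 22 and 17 reads in IACS and 0 in each OHT_IACS library, a level at least 7.58-fold lower, with 3 reads per library as the floor. Lyz2, the myeloid lysozyme, which has a near-identical copy, had a log2 fold change of -1.51. Without IACS replicate 2 the median of the list was -0.54. Of the 33 members, 17 passed the filter, and Ngp, Lyz2 and Lcn2 passed it only through libraries without OHT. Their falls are therefore partly built in by the filter. With no filter the median was -0.31, and with an RPKM of 5 or more it was -0.25. The 3 genes that rose were the mast cell protease Cpa3 (0.69), the cytotoxic protease Gzmb (0.57) and the complement factor Cfp (0.45).

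In a bulk library, fewer cells of a type and less RNA per cell cannot be told apart. Summed over the 3 neutrophil markers in the table, RPKM ran from 29.5 to 35.3 in IACS and from 11.7 to 12.6 in OHT_IACS. Summed over the 3 mast cell markers they ran from 7.62 to 8.47 and from 11.1 to 14.2, and over the 4 macrophage markers from 24.9 to 27.2 and from 31.5 to 34.6. Most of the fall in the neutrophil sum was S100a8, with means of 20.9 RPKM in IACS and 2.95 RPKM in OHT_IACS. Mpo had means of 11.4 and 9.1 RPKM. Most of the macrophage sum was Emr1, with means of 21.0 RPKM in IACS and 27.4 RPKM in OHT_IACS. Itgam had 1.11, 0.989 and 0.962 RPKM in IACS and 0.295, 0.487 and 0.244 RPKM in OHT_IACS, lower without overlap, and was below the level for testing. The neutrophil marker Elane was at or near 0, as were the macrophage marker Csf1r and the mast cell marker Fcer1a. The part of a changed cell mixture in the other results was not tested.

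Immune recognition and lineage genes fell as well. Of 23 genes of MHC class I and the interferon response, 10 fell (43.5%, against 14.2% of all genes) and 0 rose (against 12.3%) by limma (0 at an unadjusted p under 0.05, 0 by limma voom), with a median of -0.24. Nlrc5, the transactivator of MHC class I genes, had the largest fall (-1.62) and reached an RPKM of 1 only in libraries without OHT. Irf1 fell by 0.60, the immunoproteasome subunits Psmb10 and Psmb8 by 0.64 and 0.36, and the peptide transporter genes Tap1 and Tap2 by 0.42 and 0.44. The MHC class I heavy chain genes H2-K1 (-0.13 ± 0.07) and H2-D1 (-0.10 ± 0.06) were not called. Of 40 B-lineage genes listed, only 12 passed the filter and were tested. Of these 12, 6 fell (50%, against 14.2%) and 0 rose by limma (0 at an unadjusted p under 0.05, 0 by limma voom). The falls included Cd79b, a signalling chain of the B-cell receptor (-1.09), Bank1 (-0.89) and the kinase gene Syk (-0.59). Of 46 adhesion and migration genes, 15 fell (32.6%, against 14.2%) and 5 rose (10.9%, against 12.3%). S100a4 (-1), S100a6 (-0.76) and Itgal (-0.94) fell, whereas the integrin genes Itgb7 (1) and Itgb3 (0.70) rose.

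The BCL2 family sets the threshold for apoptosis at the mitochondrion. Of its 11 tested genes, 4 fell (36.4%, against 14.2% of all genes) and 1 rose (9.09%, against 12.3%). Bcl2, the anti-apoptotic founder of the family, stood at 30.2, 28.8 and 28.6 RPKM in IACS and at 19.4, 20.2 and 19.5 RPKM in OHT_IACS. The groups did not overlap, and the log2 fold change was -0.56 ± 0.05 (limma adjusted p = 2.4e-06). Bcl2a1b fell by 1.37, but it has near-identical copies, so its reads are uncertain. It also passed the filter only because of libraries without OHT. The BH3-only gene Bid fell by 0.28. The effector Bax had a log2 fold change of 0.24 (limma adjusted p = 0.021), which did not pass without IACS replicate 1 or 3 or without OHT_IACS replicate 2 or 3 (0.24, 0.22, 0.19 and 0.24). Bcl2l1, which encodes BCL-XL, had one of -0.16 (adjusted p = 0.043), which did not pass without IACS replicate 1 or 2 or OHT_IACS replicate 1 or 3 (-0.12, -0.14, -0.14 and -0.15). It also failed under 7 alternatives that left out no library, among them RPKM as deposited (limma adjusted p = 0.1) and the replicate block (0.058). The anti-apoptotic Mcl1 (0.01 ± 0.05), the effector Bak1 (-0.09 ± 0.05) and the BH3-only genes Bcl2l11 (0.15 ± 0.14) and Bbc3 (0.13 ± 0.11) were not called.

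IL-3 signalling genes were split. Of 19 tested, 4 rose (21.1%, against 12.3% of all genes) and 6 fell (31.6%, against 14.2%). Stat5a fell by 0.57 on the log2 scale and its paralog Stat5b rose by 0.32, and of the feedback inhibitors Socs1 rose by 0.59 while Cish fell by 0.48. Of 40 ATF4 targets, 10 rose (25%, against 12.3% of all genes) and 2 fell (5%, against 14.2%), with the glycine transporter gene Slc6a9 (0.57), Ddit4 (0.41) and the arginine transporter gene Slc7a1 (0.40) higher and the proline synthesis gene Pycr1 lower (-0.44). Of 29 NRF2 and antioxidant genes, 10 rose (34.5%, against 12.3%) and 2 fell (6.9%, against 14.2%), with the malic enzyme Me1 at 0.61, the glutathione synthesis gene Gclc at 0.38 and Nqo1 at -0.43.

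Cell cycle and other housekeeping lists showed shares of called genes near or under those of all genes (12.3% higher and 14.2% lower). Of 45 DNA replication genes, 2 rose and 3 fell, of 40 mitosis genes 3 rose and 1 fell, and of 21 G1 genes 2 rose and 3 fell. In purine and pyrimidine synthesis 3 of 33 rose and 3 fell, in serine and one-carbon metabolism 2 of 17 rose and 1 fell, and among polyamine genes 1 of 15 rose and 2 fell. Of 20 cytosolic tRNA synthetases 2 rose, of 38 proteasome genes 3 rose and 2 fell, of 33 genes of mitochondrial import and proteostasis 5 rose and 3 fell, and of 19 TCA cycle genes 3 rose. Of 22 p53 targets 1 rose and 3 fell, and of 39 lysosome genes 3 rose and 6 fell.

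Genes of the circadian clock were grouped after their values were seen, prompted by Nr1d1 among the largest rises. The clock runs on CLOCK and ARNTL, which act at E-boxes, and on the PER, CRY and NR1D repressors that they induce. Of the 19 members of that list, 14 passed the filter and were tested. Of these 14, 8 rose (57.1%, against 12.3% of all genes) and 2 fell (14.3%, against 14.2%). Nr1d1, which prompted the list, is among the 8, so this share is drawn from values already seen. Per3 was under an RPKM of 1 in every library without OHT, and Nr1d1 also needed libraries with OHT to pass the filter. Their rises, and their part in this share, are therefore partly built in by the filter. The nuclear receptor gene Nr1d1 stood at 0.902, 1.03 and 1.03 RPKM in IACS and at 4.76, 3.87 and 3.78 RPKM in OHT_IACS. Its paralog Nr1d2 went from 4.76, 5.1 and 4.1 RPKM to 15.1, 15.5 and 14.7 RPKM, and neither gene's groups overlapped. The log2 fold changes were 1.97 ± 0.15 (limma adjusted p = 1.2e-06) and 1.69 ± 0.08 (limma adjusted p = 1.8e-08). Tef, which binds D-box sites, went from 5.57, 5.29 and 4.79 RPKM to 14.5, 12.9 and 12.9 RPKM, a log2 fold change of 1.35 ± 0.06 (limma adjusted p = 1.4e-08). The repressor gene Per3 (1.44), the D-box factor gene Dbp (0.61) and Cry1 (0.24) also rose, and Nfil3, which competes at D-boxes, fell by 0.53. Per2 (0.30) and Cry2 (0.33) rose as well, but not under every alternative (limma adjusted p up to 0.12 and 0.051). Arntl (-0.13 ± 0.11), Clock (0.09 ± 0.07) and Per1 (0.16 ± 0.21) were not called. Without IACS, OHT moved Nr1d1 by 2.2, Nr1d2 by 1.76 and Tef by 0.99 on the log2 scale.

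The same contrast in cells without IACS, OHT against untreated, shares no library with this one. It called 3546 genes (36.4%). Of the 2585 genes called with IACS, 1909 (73.8%) were also called without it, which is 53.8% of the 3546. They went in the same direction for 1897 genes, 894 higher and 1003 lower, and in opposite directions for 12. Of the 1897, 1176 had the smaller change with IACS, and the median size was 0.35 with and 0.40 without IACS on the log2 scale. Across the 9745 genes, the effects correlated with a Pearson r of 0.699 (Spearman rho 0.717), where the points are genes and not independent replicates. The totals behind RPKM overlapped between the groups in both settings, with differences between mean log2 totals of -0.09 with IACS and -0.28 without.

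**Figure D4:**
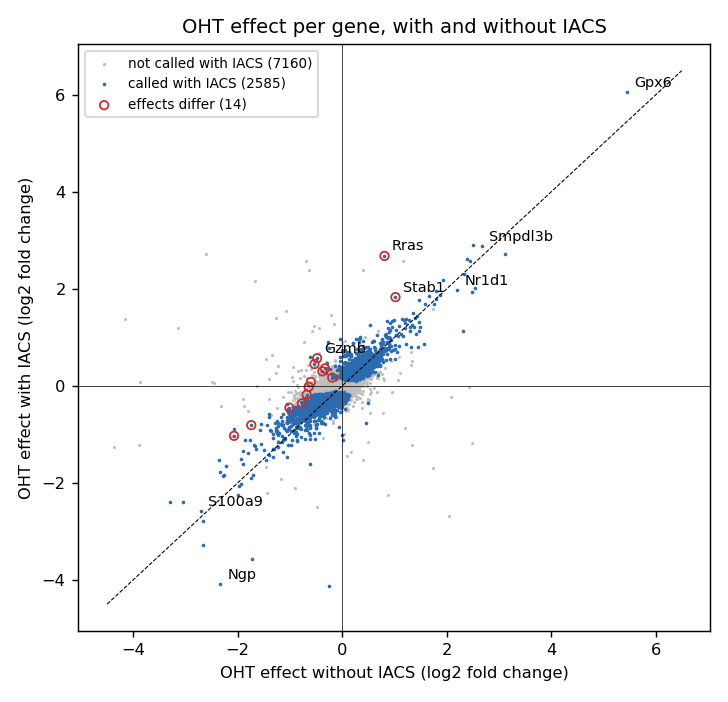
Log2 fold change of OHT without IACS (horizontal axis) and with IACS (vertical axis) for 9745 genes; blue points were called with IACS by limma, rings mark the 14 genes whose effects differed, and the dashed line marks equal effects. Most called genes lie in the 2 quadrants of equal sign, and all 14 rings lie above the line.

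A test of the difference between these effects called 14 genes (0.144%; limma interaction), and in all 14 the OHT effect was the higher one with IACS. At an unadjusted p under 0.05 there were 1240. The count moved with single libraries, to 130 without OHT replicate 2 and to 3 without OHT replicate 3 or OHT_IACS replicate 3. Gzmb, Hk3 and Cfp were called in each of the 12 fits that left out 1 library. Gzmb, the protease granzyme B, stood at 22.4, 21.8 and 21.1 RPKM in untreated cells and at 15, 16.9 and 15.8 RPKM with OHT. It stood at 33.9, 32.2 and 31.9 RPKM with IACS and at 44.0, 50.7 and 50.9 RPKM with both. OHT thus went with lower levels without IACS and with higher levels under it, and the difference of the effects was 1.05 ± 0.08 (interaction, limma adjusted p = 6.7e-05). The complement factor Cfp also switched direction, from -0.53 to 0.45 (difference 0.98 ± 0.12; limma adjusted p = 0.0035).

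Hk3 and Tuba8 fell less with IACS than without. Hk3 went from 18.5, 18.3 and 15.4 RPKM to 7.40, 9.54 and 8.32 RPKM with IACS, and from 14.6, 15.1 and 16.1 RPKM to 3.53, 3.8 and 3.49 RPKM without. The difference of the log2 effects was 1.04 ± 0.11 (limma adjusted p = 0.0015). Tuba8, an alpha-tubulin, fell by 0.45 with and by 1.01 without IACS (limma adjusted p of the difference 0.012). Stab1, a scavenger receptor, rose in both settings, from 1.41, 1.42 and 1.32 RPKM to 5.17, 5.22 and 5.06 RPKM with IACS and from 1.55, 1.49 and 1.48 RPKM to 3.23, 3.32 and 3.08 RPKM without (difference 0.81 ± 0.11; limma adjusted p = 0.015).

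**Figure D5:**
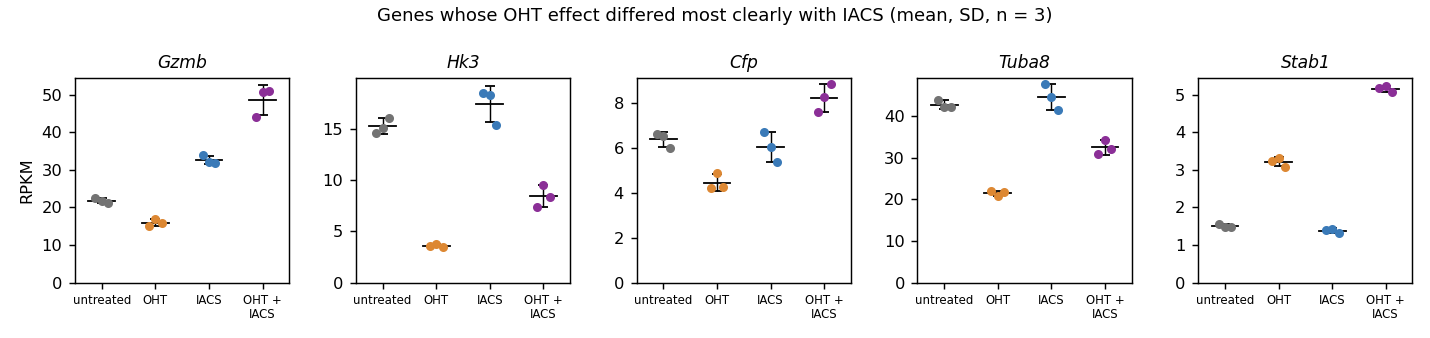
RPKM (vertical axis, linear from 0) of the 5 genes with the smallest adjusted p of the interaction, in the 12 libraries by group (horizontal axis); points are libraries, bars are means and whiskers SD (n = 3). Gzmb was at 44.0 to 50.9 RPKM with both agents and at 15 to 16.9 RPKM with OHT alone.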

How the data were processed

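Total RNA of FL MycER cells in 4 groups of 3 biological replicates was depleted of rRNA, sequenced as stranded libraries and mapped to mm9; the submitters' processing notes name TopHat2 2.0.8, SAMtools, featureCounts 1.4.5-p1 and DESeq2. The gene annotation and the treatment of duplicate reads are not given in the sources used here. The authors deposited RPKM per gene and library. The deposited table also holds, for 3 comparisons with untreated cells, the authors' log2 fold changes with their adjusted p-values. These were not used.

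RPKM were scaled by the median ratio of each library (R 4.3.3), and log2(RPKM + 0.1) of all 12 libraries entered 1 limma fit (limma 3.58.1, mean-variance trend, two-sided, Benjamini-Hochberg, threshold 0.05), with 4 group means. Fold changes are on the log2(RPKM + 0.1) scale, which understates low genes; RPKM in the text are as deposited. Reads on genes, recovered from the RPKM steps for all genes above 0, ran from 4494115 to 5637186 in IACS and from 4808166 to 4918917 in OHT_IACS. Bounds with a floor of 3 reads cover counting error only. The procedure was tested on simulated data for this comparison (9745 genes). With a log2 change of 1 in 200 genes, 191 of them passed, and with a log2 change of 0.5, 130 passed. In both cases 12 of the other 9545 genes passed. Simulated reads were drawn independently, with the same setting for extra spread in all genes. They held no deviation shared across a library and no levelling of abundant genes, so the rates in the real data may differ.

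Members and lists were chosen with earlier results of these data known; 32 lists were written by hand, 1 was added after seeing the values. Genes named are the 10 largest rises and falls among called genes with separate groups and 20 or more reads in each library of the higher group, members of lists of up to 40 genes, the 5 largest changes of longer lists, the 5 smallest adjusted p of the interaction, and genes fixed by name. A few genes that this rule or the lists include are not reported here. Promoters are from RefSeq (GRCm38.p6). Replicate numbers were not taken to pair the samples. Alternatives were other pseudocounts (0.01 and 1), no filter, an RPKM of 5 or more, unscaled RPKM, quantile normalization, a block for the replicate number, no trend, the log2 library total as covariate, limma voom on recovered reads, the compared groups alone and each library left out; averaging IACS replicates 1 and 2, and lists under 0.5 reads per base, were added after seeing the data.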

Additional observations from a re-analysis of the deposited data

Results flagged for a closer look

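The OHT effect differed between cells with and without IACS in 14 genes by the interaction term (limma, adjusted p under 0.05), with the difference given as the log2 effect with IACS minus that without. Gzmb (1.05 ± 0.08; adjusted p = 6.7e-05), Hk3 (1.04 ± 0.11; adjusted p = 0.0015) and Cfp (0.98 ± 0.12; adjusted p = 0.0035) passed in all 12 fits that left out 1 library and in all 11 other alternatives, with adjusted p of at most 0.0007, 0.011 and 0.019. Tuba8 (0.57 ± 0.08) passed in 9 and Stab1 (0.81 ± 0.11) in 8 of the 12, with adjusted p of up to 0.06 and 0.081.

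The other 9 genes passed in 1 to 3 of the 12. Among these the small GTPase gene Rras had the largest difference, 1.86 ± 0.31, on 3, 2 and 1 reads in IACS and 18, 15 and 19 reads in OHT_IACS. Rras passed the filter only through libraries with OHT. Of the regulators, the ETS factor Elk3 had a difference of 0.69 and Mycn one of 0.50. Il3ra, the IL-3-binding chain of the IL-3 receptor, had one of 0.68, with an OHT effect of 0.30 with IACS and -0.38 without. Catalase (Cat) had 0.36, the protease gene Ctrl 0.93, the small GTPase gene Rab44 0.41, the phosphatase gene Ptprv 0.62 and the unnamed transcript 4930404N11Rik 0.69.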

How the results depend on the processing

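The count of genes changed with IACS present stayed within 1.5 times of 2585 under every alternative (1880 to 2481 with each library of the compared groups left out; 908 to 1077 higher and 943 to 1404 lower), and no called gene changed sign. Without IACS the count was 3546, 2650 to 4123 with a library left out and 2351 with the log2 library total as covariate. The interaction called 14 genes, 3 to 130 with a library left out, 8 with IACS replicates 1 and 2 averaged, 5 with RPKM as deposited, 25 with limma voom, 5 with the covariate, 7 with no filter and 34 with quantile normalization. Replicate numbers were not taken to pair the samples (correlation of deviations -0.105, -0.0309 and 0.0732 between IACS and OHT_IACS, where not every library correlated best with its own number, and 0.0831, 0.104 and 0.0879 between untreated and OHT, where every library did); the replicate block gave 2532 genes with IACS, 3593 without and 7 for the interaction.

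With a library left out the median of the first MYC list ran from 0.016 to 0.096. With the covariate it was -0.007, of the second 0.021 and of ribosome biogenesis 0.023; quantile normalization gave the second MYC list 0.033. With no filter the medians were 0.189 (sterol), -0.310 (granule and myeloid) and -0.172 (MHC class I), with an RPKM of 5 or more -0.253 (granule), and with a pseudocount of 1 -0.185 (MHC class I). With a library left out the granule median ran from -0.883 to -0.535. These filters change which members are counted; other causes were not tested. Of 153 genes checked singly, 117 passed the filter at an RPKM of 5 or more. Of all 153, 133 were called, and 117 of these were called under every alternative that tested them. Those that were not are named here with the highest adjusted p by limma: Cad (0.087), Ncl (0.11), Id2 (0.1), Mnt (0.17), Mpo (0.093), Lcn2 (0.068), Cd72 (0.062), Il3ra (0.05), Per2 (0.12), Cry2 (0.051), Insig2 (0.063), Pmvk (0.071) and Idi1 (0.11), beside Mycn, Bax and Bcl2l1. Depth limits the genes under 20 reads and the levelling of abundant genes limits those above 0.5 reads per base.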
